A study of Mus musculus with 2 samples.

Results

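Natural killer (NK) cells were taken from single-cell RNA sequencing of mouse tumours by a rule on the UMI counts of each cell barcode, where a UMI (unique molecular identifier) counts 1 captured transcript. Barcodes under 500 UMIs or 300 genes, or above 15% mitochondrial UMIs, were left out. A barcode was called an NK cell with at least 3 UMIs summed over the NK receptor genes Ncr1, Klrb1c, Klre1, Klra4 and Klra8, and with none of the T cell genes Cd3e, Cd3d, Cd3g, Cd8a and Cd8b1. It also had to hold at most 2 UMIs of the keratins Krt8 and Krt18 and at most 1 UMI of the myeloid genes Lyz2, Csf1r and S100a8. The rule found 66 NK cells among 8176 kept barcodes of the LYTAC library and 64 among 7091 of the control library, or 130 of 15267 in all. The cells were thus chosen by the measured counts of these genes, whose levels here are a description and support nothing about NK identity.

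The tumours were of Hepa1-6, an established mouse line of liver cancer. The LYTAC group received CD147-LYTACs at 40 mg/kg every 3 days for 4 doses, by a route given as either into the peritoneum or into a vein, and tumours were taken on day 12. The control group is named only as control, with no statement of a vehicle, and the strain and number of mice behind each library are not given. In both groups dissociated cells were sorted by CD45, a surface protein of blood cells, and the CD45-negative and CD45-positive fractions were then remixed, 1 part to 3 parts, for 10x Genomics libraries. A lysosome-targeting chimaera (LYTAC) brings a surface protein to the lysosome for degradation, and CD147, encoded by Bsg, is a partner of lactate transporters at the cell surface. Each group is 1 library, so no difference between the groups has a replicate check. All intervals below cover counting error only.

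NK cells are innate lymphocytes that kill tumour and infected cells without a rearranged antigen receptor. They read a balance of inhibitory receptors, many of which bind MHC class I, and activating receptors, which signal through adaptors such as DAP12 (Tyrobp) and the Fc receptor gamma chain (Fcer1g). In the mouse, the Ly49 receptors of the Klra genes take the role that killer immunoglobulin-like receptors have in humans, and each NK cell carries its own subset of them. Killing runs through granules that hold perforin and granzymes, and the transcription factors Eomes and T-bet (Tbx21) direct NK development.

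The start regions of 5 genes are shown because the results turn on them. Gzma and Prf1 encode the killing proteins granzyme A and perforin, Ncr1 encodes the receptor NKp46, and Klra4 and Klra8 encode Ly49 receptors that are part of the rule. Each runs 5′ to 3′ on the strand of its gene, from 250 bases before to 50 bases after the start, and is credited to RefSeq on GRCm38.p6. Gzma lies at chr13:113100932-113101231 on the minus strand, Prf1 at chr10:61297586-61297885 on the plus strand and Ncr1 at chr7:4337465-4337764 on the plus strand. Klra4 lies at chr6:130067222-130067521 and Klra8 at chr6:130129849-130130148, both on the minus strand. Capitals mark TGTGGT or its reverse complement ACCACA, the core letters bound by RUNX factors. For Ncr1 and Klra8 the table holds 2 start regions, and the one listed first is shown.
Gzma: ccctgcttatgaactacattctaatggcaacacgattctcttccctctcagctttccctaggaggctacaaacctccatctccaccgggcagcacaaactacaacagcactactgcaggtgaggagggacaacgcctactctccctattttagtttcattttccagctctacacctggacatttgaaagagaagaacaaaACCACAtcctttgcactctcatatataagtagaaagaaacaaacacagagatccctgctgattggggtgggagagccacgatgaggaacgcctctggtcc
Prf1: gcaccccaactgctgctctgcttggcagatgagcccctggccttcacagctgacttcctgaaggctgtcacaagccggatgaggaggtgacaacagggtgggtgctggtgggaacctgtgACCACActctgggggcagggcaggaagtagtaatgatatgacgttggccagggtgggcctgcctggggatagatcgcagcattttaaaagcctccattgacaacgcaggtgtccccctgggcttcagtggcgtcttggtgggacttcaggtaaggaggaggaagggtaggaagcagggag
Ncr1: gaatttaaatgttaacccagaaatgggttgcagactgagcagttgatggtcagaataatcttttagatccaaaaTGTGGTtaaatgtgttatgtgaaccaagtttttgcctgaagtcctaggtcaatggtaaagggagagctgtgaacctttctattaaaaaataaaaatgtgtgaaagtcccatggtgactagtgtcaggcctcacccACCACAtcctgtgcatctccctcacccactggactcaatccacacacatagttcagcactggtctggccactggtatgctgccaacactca
Klra4: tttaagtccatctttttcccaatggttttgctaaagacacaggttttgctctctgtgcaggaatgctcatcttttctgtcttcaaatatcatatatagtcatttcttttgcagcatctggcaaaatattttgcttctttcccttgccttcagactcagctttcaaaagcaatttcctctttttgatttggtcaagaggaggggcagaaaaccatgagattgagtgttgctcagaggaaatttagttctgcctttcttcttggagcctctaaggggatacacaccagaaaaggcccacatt
Klra8: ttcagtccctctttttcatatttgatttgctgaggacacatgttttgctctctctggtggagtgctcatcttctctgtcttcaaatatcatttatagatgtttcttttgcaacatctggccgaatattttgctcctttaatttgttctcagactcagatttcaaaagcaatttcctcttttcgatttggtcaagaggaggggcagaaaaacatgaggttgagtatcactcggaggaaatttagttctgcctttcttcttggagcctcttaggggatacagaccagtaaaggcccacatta
These letters occur 1 time in the Gzma window, 1 time in that of Prf1 and 2 times in that of Ncr1, and in 16.8% of all 32817 such windows. They are not in the windows of Eomes, Klra4, Klra8, Klra9 or Klra7. The T-box letters GGTGTGA, on either strand, are in none of these 8 windows and in 3.98% of all windows. The Klra4 and Klra8 windows are 86.6% identical over 299 aligned bases, with 259 identical. Klra9 is 82.5% identical to Klra8 over 234 aligned bases, and the Klra7 window used is 48.9% identical to Klra8 over 272. Klra7 has 2 start regions, and the one listed first was used, at chr6:130231638-130231937. It lies inside the annotated gene, which on the minus strand begins at 130233322, whereas the windows of Klra4, Klra8 and Klra9 span the annotated beginning of their genes. The Klra7 value thus compares unlike regions and is not read.

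The steps of the rule removed far more barcodes than they kept. At least 3 NK receptor UMIs were found in 617 LYTAC and 559 control barcodes, of which 468 and 444 were low in keratin and myeloid genes. Of those, 402 LYTAC and 380 control barcodes held a UMI of Cd3e, Cd3d, Cd3g, Cd8a or Cd8b1, so most barcodes with NK receptor RNA also held T cell RNA. Of these, 16 LYTAC and 24 control barcodes missed the rule by Cd3 alone. By keratin alone, 26 LYTAC and 43 control barcodes missed it. Members held a median of 5 NK receptor UMIs in the LYTAC library and 7 in the control library, and 15 LYTAC and 8 control members held exactly 3.

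Just outside the threshold, 20 LYTAC and 17 control barcodes with 2 receptor UMIs met the other conditions. Gzma was found in 11 of the 15 LYTAC members with exactly 3 receptor UMIs and in 6 of the 8 such control members. Among the barcodes with 2 receptor UMIs, it was found in 12 of 20 LYTAC and 12 of 17 control barcodes. Many barcodes just outside the threshold thus held Gzma too.

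LYTAC members held a median of 4441 UMIs (657 to 14743) and 1904 genes, and control members held a median of 4951 UMIs (1803 to 22730) and 2068 genes. Mitochondrial UMIs made up a median of 1.84% in LYTAC and 1.87% in control members. Summed, the members held 330909 UMIs in the LYTAC library and 388149 in the control library, and levels below are CPM, a gene's UMIs as a share of these sums on the usual per-library scale. The libraries shared 24 of their deposited barcodes, and none of the NK cells was among them. The libraries held 149812326 and 143495332 UMIs in all, LYTAC first.

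NK cells made up 1.14% (exact 95% interval 0.881 to 1.45) of the 5799 keratin-low barcodes of the LYTAC library and 1.28% (0.989 to 1.64) of the 4988 of the control library, a ratio of 0.887. With barcodes of at least 10 UMIs of the neutrophil genes S100a8 and S100a9 taken out, the totals were 4734 in the LYTAC and 4890 in the control library. Of these, NK cells made up 1.39% (1.08 to 1.77) in the LYTAC library and 1.31% (1.01 to 1.67) in the control library, a ratio of 1.07, so the direction turned with the denominator. Set against T cells, there were 2.65 NK cells per 100 T cells in the LYTAC library (66 to 2486) and 1.86 in the control library (64 to 3440). That ratio was 1.43 with an interval of 0.996 to 2.04, which just includes no difference, and it was 1.02 with at least 5 NK receptor UMIs required. The sort and remix set how many immune cells entered each library, and its part in these shares was not tested.

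The name NK cell was checked against its markers, with CD8 T cells of the same library beside them (at least 2 Cd3 and 2 Cd8 UMIs and no Cd4, 1683 LYTAC and 2267 control cells). Granzyme A (Gzma) stood at 3478 CPM in LYTAC NK cells and 185 CPM in LYTAC CD8 T cells, and at 4006 CPM in control NK cells and 124 CPM in control CD8 T cells. It was found in 61 of 66 LYTAC and 55 of 64 control members. Eomes, the T-box factor of NK cells, stood at 399 CPM in LYTAC NK cells and 33.4 CPM in LYTAC CD8 T cells, and at 397 and 30.3 CPM in the control library in the same order. Both markers were thus many times higher in NK cells than in CD8 T cells in each library, so these markers do not go against the name.

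Ncr1 itself was sparse, with 29 UMIs in 18 LYTAC members and 36 UMIs in 18 control members. Klrb1c (NK1.1) had 48 UMIs in 26 LYTAC and 55 UMIs in 29 control members, and Klre1, a lectin receptor of NK cells, had 84 UMIs in 45 LYTAC and 104 UMIs in 41 control members. Klra4 or Klra8 was present in 54 LYTAC and 48 control members, while 28 LYTAC and 35 control members reached 3 UMIs by Ncr1, Klrb1c and Klre1 alone. Klre1 was not specific to them, at 254 CPM in LYTAC NK cells against 158 CPM in LYTAC CD8 T cells, and at 268 against 122 CPM in the control library.

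Because deeper cells show more genes, shares of cells with a UMI were also taken after thinning each cell to 1000 UMIs, which left out 1 LYTAC member. Gzma was then found in 67.7% of LYTAC and 82.8% of control NK cells, against 92.4% and 85.9% unthinned, an order that turned with depth and is not read. For Eomes the thinned shares were 32.3% in LYTAC and 34.4% in control NK cells, and 66.7% and 70.3% unthinned. In hepatoma cells, which should lack both genes, no thinned cell of 1782 LYTAC or 1639 control cells held either, and unthinned shares of Gzma were 1.18% and 1.10% at median depths of 44133 and 47664 UMIs. Klra4 was found in 43.1% of thinned LYTAC and 34.4% of thinned control NK cells and in 0.393% and 0.549% of thinned hepatoma cells. Unthinned, 10.7% of LYTAC and 12.6% of control hepatoma cells held a Klra4 UMI, where Klra8 was found in 0.0561% and 0.244%. The unthinned Klra4 shares in NK cells were 62.1% in LYTAC and 54.7% in control members.

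Several genes that define other cell types were at 0, whereas the summed lists of these types, and the T cell and MHC class II genes, were not. C1qa of macrophages, Csf3r of neutrophils, Ms4a1 of B cells, Xcr1 and Clec9a of dendritic cells and Apoa1 of liver cells had no UMI in any member. The macrophage list outside the rule summed to 212 CPM in LYTAC and 353 CPM in control members, against 5695 and 6135 CPM in gated monocytes or macrophages, and Ccr2 and Ly6c2 made up most of it. The neutrophil list summed to 84.6 and 23.2 CPM, with 5 of 11 genes at 0 in LYTAC members and 8 of 11 in control members. The hepatoma list summed to 48.4 and 28.3 CPM, and albumin (Alb) had 12 UMIs in LYTAC and 2 UMIs in control members. The B cell list summed to 63.5 and 61.8 CPM. The mast cell and basophil list summed to 136 and 219 CPM, of which Kit made up 127 and 219. The fibroblast and endothelial list summed to 493 and 585 CPM, of which Pecam1 made up 487 and 582. The list of gamma-delta T cells and type 2 and 3 innate lymphoid cells summed to 229.7 and 232 CPM, against 114 and 113 CPM in CD8 T cells.

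The dendritic cell list summed to 499 CPM in LYTAC and 234 CPM in control members, and 5 of its 6 measured genes were at least 1.5-fold higher in LYTAC members. The MHC class II genes H2-Aa and H2-Ab1 had 28 and 21 UMIs in LYTAC members and 6 and 4 UMIs in control members, and the invariant chain Cd74 had 37 UMIs in LYTAC and 15 UMIs in control members. Without the LYTAC member with most Cd74 UMIs, and with all control members kept, the log2 ratio of Cd74 was 0.05 in place of 1.53. The T cell list outside the rule summed to 798 CPM in LYTAC and 855 CPM in control members, against 3874 and 3608 CPM in CD8 T cells, or 20.6% and 23.7%. Of its 12 genes, 4 were at 0 in LYTAC and 3 in control members, Cd4 and Foxp3 among them. Trac had 6 UMIs in LYTAC and 7 UMIs in control members, whereas Trbc1 stood at 332 CPM in LYTAC and 366 CPM in control members, against 529 and 529 CPM in CD8 T cells of the LYTAC and control libraries. The part of these transcripts in the results below was not tested.

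**Figure D1:**
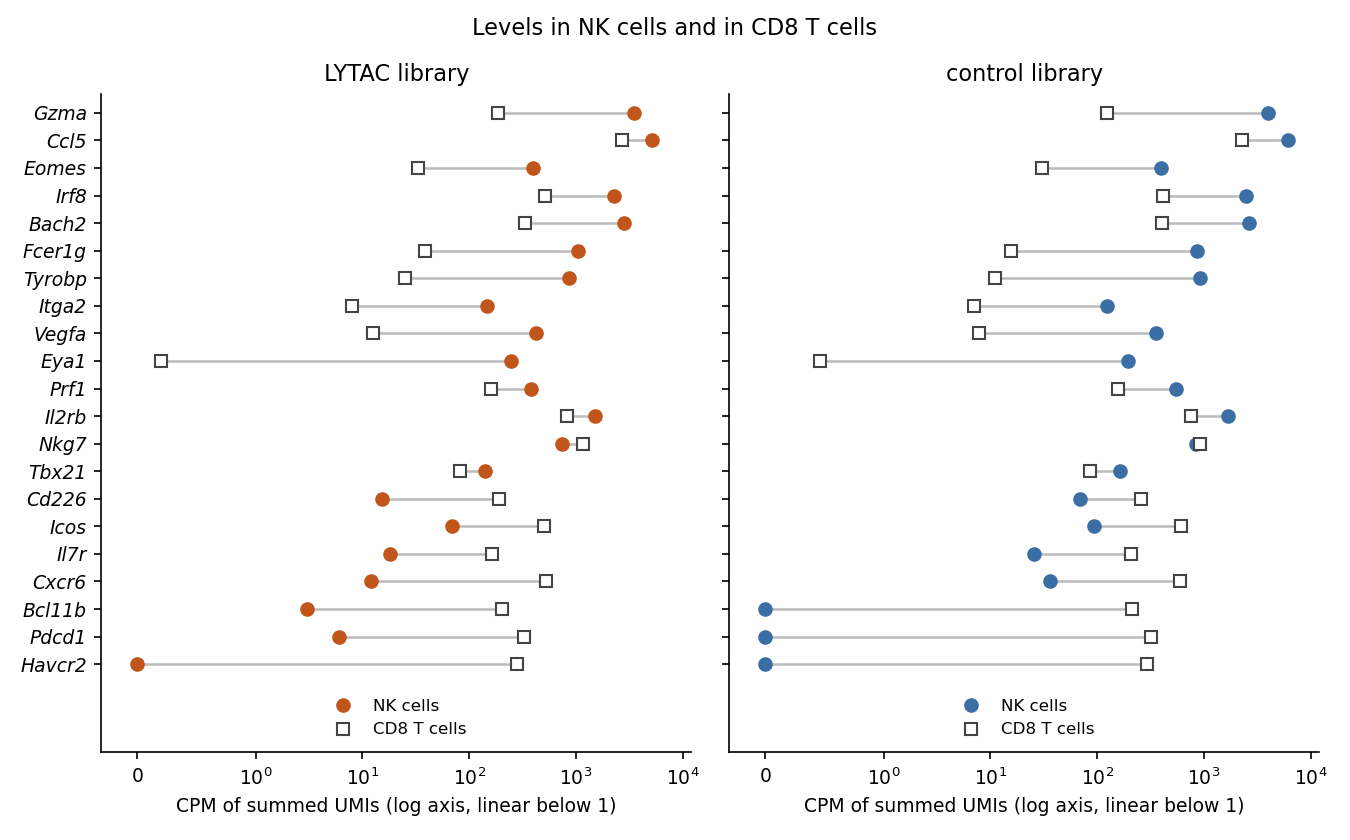
Levels of 21 genes in NK cells (filled circles) and CD8 T cells (open squares) of the LYTAC library (left) and the control library (right), as CPM of summed UMIs on a log axis that is linear below 1. Gzma, Eomes, Fcer1g and Tyrobp lie far to the right in NK cells of both libraries, and Havcr2, Pdcd1 and Bcl11b lie at or near 0 in NK cells.

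Beyond the rule, genes were compared between NK cells and CD8 T cells where either reached 100 CPM. Of 2305 such genes, 69 (2.99%) were at least 4-fold higher and 44 (1.91%) at least 4-fold lower in NK cells in both libraries. The rule chose NK cells against T cells, so these counts are a description and nothing is read from them. Adaptors of activating receptors were among the higher genes. Fcer1g stood at 1046 CPM in LYTAC NK cells and 38.2 CPM in LYTAC CD8 T cells, and at 863 and 15.4 CPM in the control library. Tyrobp stood at 855 CPM in LYTAC NK cells and 25.1 CPM in LYTAC CD8 T cells, and at 909 and 11.1 CPM in the control library. Clnk, an adaptor of immunoreceptor signalling, stood at 139 CPM in LYTAC NK cells and 157 CPM in control NK cells and near 1 CPM in CD8 T cells of both libraries. The integrin Itga2 (CD49b), a classical NK surface marker of the mouse, stood at 148 CPM in LYTAC and 124 CPM in control NK cells.

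Other genes on that side are less often listed with NK cells. Eya1, a transcriptional coactivator and phosphatase, stood at 248 CPM in LYTAC NK cells and 193 CPM in control NK cells, and under 1 CPM in CD8 T cells of both libraries. Vegfa, the vascular growth factor, stood at 420.1 CPM in LYTAC NK cells and 356 CPM in control NK cells, and in CD8 T cells at 12.5 and 7.87 CPM. These NK levels were above those of gated monocytes or macrophages of the same library, at 297 CPM in LYTAC and 322 CPM in control, and of hepatoma cells, at 95.5 and 112 CPM. Vegfa was found in 49 of 66 LYTAC and 45 of 64 control NK cells, so that its level was not due to a few cells. Car2, a carbonic anhydrase, stood at 532 CPM in LYTAC and 603 CPM in control NK cells, against 15.8 and 15.5 CPM in CD8 T cells.

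Exhaustion and T lineage genes lay on the other side. Havcr2 (TIM-3) had no UMI in any NK cell, which allows up to 3 UMIs or 9.07 CPM in LYTAC and 7.73 CPM in control members, whereas CD8 T cells held 281 CPM in the LYTAC and 289.7 CPM in the control library. Pdcd1 (PD-1) had 2 UMIs in LYTAC and 0 UMIs in control NK cells, against 326 and 318 CPM in CD8 T cells. Lag3 had 1 UMI in LYTAC and 3 UMIs in control NK cells. Themis, a signalling protein of the T cell receptor, had 1 UMI in each library, and Bcl11b, a T lineage factor, had 1 UMI in LYTAC and 0 UMIs in control NK cells. The chemokine receptor Cxcr6 stood at 12.1 CPM in LYTAC and 36.1 CPM in control NK cells, against 520.5 and 592 CPM in CD8 T cells.

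The Ly49 genes lie side by side on chromosome 6 of mm10, all on the minus strand, from Klra5 at chr6:129898996-129917650 to Klra1 at chr6:130363917-130386874. Klra4 (Ly49D), an activating receptor that signals through DAP12, had 206 UMIs in 41 LYTAC members and 244 UMIs in 35 control members, or 623 and 629 CPM. Klra8 (Ly49H), the activating receptor for a mouse cytomegalovirus protein, had 109 UMIs in 32 LYTAC members and 169 UMIs in 39 control members, or 329 CPM in LYTAC and 435 CPM in control. Both genes are part of the rule, so their levels are not tested or read.

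Of the inhibitory receptors, Klra7 (Ly49G) stood at 193 CPM in LYTAC and 180.3 CPM in control NK cells, with UMIs in 24 and 21 cells (log2 ratio 0.10, 95% interval -0.41 to 0.61). Klra9 (Ly49I) stood at 81.6 CPM in LYTAC and 232 CPM in control NK cells, with 27 UMIs in 13 LYTAC cells and 90 UMIs in 25 control cells (log2 ratio -1.51, 95% interval -2.18 to -0.87). Klra3 (Ly49C) lay the other way, with 28 UMIs in 10 LYTAC cells and 6 UMIs in 4 control cells (log2 ratio 2.45, 95% interval 1.15 to 4.02). The receptors of this kind thus showed no common direction: Klra7 differed little, Klra9 was lower and Klra3 higher in the LYTAC library. Klra1 (Ly49A) had 11 UMIs in 3 LYTAC and 15 UMIs in 5 control cells, and all 14 UMIs of Klra5 (Ly49E) came from 2 control cells.

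Klra9 and Klra3 are the least certain of these counts. Windows of 50 bases were taken from the longest transcript of each gene. Of these, 21.6% for Klra9 and 14.3% for Klra3 also occur in a transcript of another Ly49 gene compared, and 35.3% and 29.3% over the last 499 bases. For Klra8 the share was 10.7%, for Klra4 4.26% and for Klra7 0%. The labels do not say how the counting assigned such reads, and its part in the opposite directions of Klra9 and Klra3 was not tested.

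Many NK cells held UMIs of several Ly49 genes, in part because Klra4 and Klra8 chose the cells. At least 1 Ly49 gene other than these was found in 42 of 66 LYTAC members (63.6%) and 42 of 64 control members (65.6%). With Klra4 and Klra8 counted, at least 2 were found in 42 of 66 LYTAC members (63.6%) and 45 of 64 control members (70.3%), with a median of 2 in each library. Klra4 and Klra8 were found together in 19 LYTAC and 26 control members. Klra4 without Klra8 was found in 22 LYTAC and 9 control members, and Klra8 without Klra4 in 13 members of each library. None of the measured Ly49 genes was found in 7 LYTAC and 9 control members, which the rule had taken by Ncr1, Klrb1c and Klre1. After thinning, Klra8 was found in 18.5% of LYTAC and 39.1% of control members and Klra9 in 7.69% and 23.4%, against 48.5% and 60.9% for Klra8 and 19.7% and 39.1% for Klra9 unthinned. Missing UMIs are common at these depths, so a gene not found in a cell may still be expressed there.

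**Figure D2:**
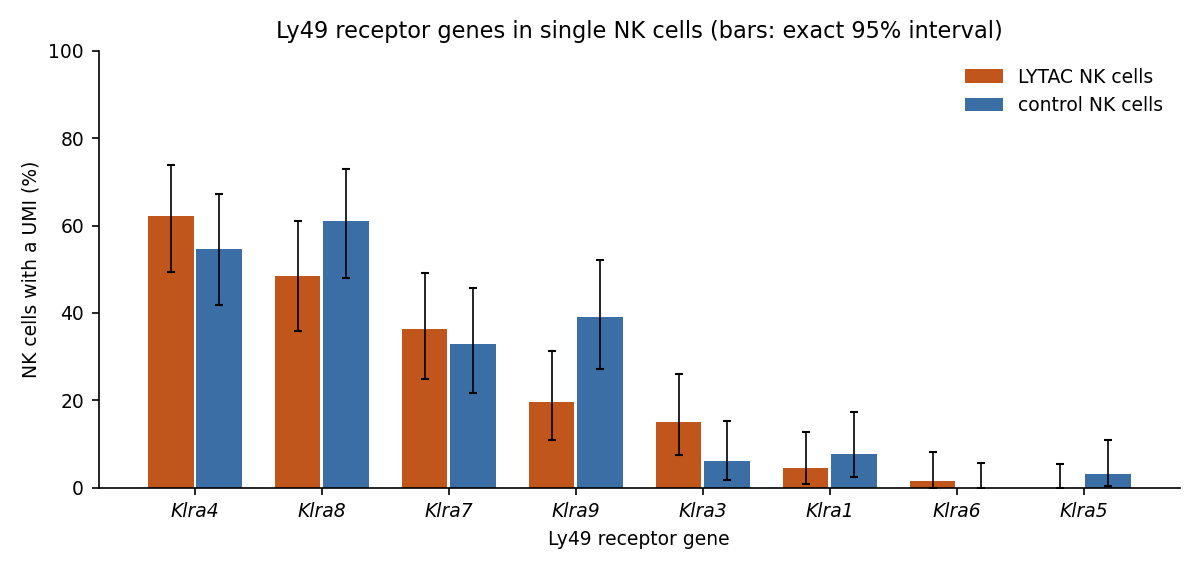
Share of NK cells with at least 1 UMI of each of 8 Ly49 genes, in percent, for 66 LYTAC (orange) and 64 control (blue) members, with exact 95% intervals as lines. Klra4 and Klra8 helped to choose the cells. Klra9 was found in 13 LYTAC and 25 control cells and Klra3 in 10 and 4.

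Over all genes with at least 20 UMIs in NK cells of both libraries together, outside the rule, the median log2 ratio of LYTAC over control was -0.05. Of these 5116 genes, 460 (8.99%) were at least 1.5-fold higher and 757 (14.8%) at least 1.5-fold lower in LYTAC members. The gene lists below are set against these shares, and genes under 20 UMIs stay out of the counts. A sparse gene that passed this minimum through 1 library only had to differ, so the counts are a description.

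The other lectin receptors of the NKG2 and NKR-P1 families had 7 of 11 genes measured, all with a ratio below 0 (median -0.35), with none past 1.5-fold higher and 2 past 1.5-fold lower. Klrb1b (NKR-P1B), an inhibitory receptor for Clr-b, stood at 218 CPM in LYTAC and 353 CPM in control NK cells (log2 ratio -0.70, 95% interval -1.13 to -0.28), with UMIs in 31 of 66 LYTAC and 36 of 64 control cells. Klrb1a was found in 4 LYTAC and 11 control cells, with 4 UMIs in LYTAC and 17 UMIs in control. Klrk1 (NKG2D), which binds stress ligands on tumour cells, stood at 335 CPM in LYTAC and 409.6 CPM in control NK cells (log2 ratio -0.29, 95% interval -0.65 to 0.07). Klrc1 (NKG2A), which inhibits through its partner Klrd1 (CD94), stood at 160.2 CPM in LYTAC and 209 CPM in control NK cells, and in CD8 T cells at 459.5 and 545 CPM, so that CD8 T cells held more of it than NK cells in each library.

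Among activating receptors and adaptors, 21 of 26 genes outside the rule were measured, with 1 at least 1.5-fold higher and 3 lower (median -0.08). Hcst (DAP10), the adaptor of NKG2D, stood at 139 CPM in LYTAC and 258 CPM in control NK cells, with UMIs in 34 LYTAC and 41 control cells (log2 ratio -0.89, 95% interval -1.43 to -0.37). Sh2d2a, an adaptor of lymphocyte signalling, stood at 453 CPM in LYTAC and 520.4 CPM in control NK cells (log2 ratio -0.20, 95% interval -0.51 to 0.11). Tyrobp differed by less than its counting error (log2 ratio -0.09, 95% interval -0.32 to 0.14), and Fcer1g was a little higher in LYTAC members (log2 ratio 0.28, 95% interval 0.06 to 0.50). The exchange factor Vav1 had 38 UMIs in LYTAC and 26 UMIs in control members. Cd226 (DNAM-1), an activating receptor for nectin-like ligands, had 5 UMIs in LYTAC and 27 UMIs in control members, 24 of which lay in 4 of the control cells described with Gzmc below.

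Of 21 inhibitory genes, 5 had no UMI and 7 were measured, with 2 at least 1.5-fold higher and 2 lower (median -0.38). Cish, an inhibitor of interleukin-15 signalling in NK cells, stood at 212 CPM in LYTAC and 139 CPM in control NK cells, with UMIs in 38 LYTAC and 32 control cells (log2 ratio 0.60, 95% interval 0.07 to 1.14). Ctla4 had 5 UMIs in 3 LYTAC cells and 38 UMIs in 11 control cells (log2 ratio -2.70, 95% interval -4.40 to -1.35). Tigit had 8 UMIs in LYTAC and 10 UMIs in control members, and Cd96 had 10 and 16.

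The cytotoxic granule list had 20 of 26 genes measured, of which 3 lay above and 17 at or below 0 (median -0.23), with 2 at least 1.5-fold higher and 3 lower. Perforin (Prf1), which opens the target membrane, stood at 378 CPM in LYTAC and 546 CPM in control NK cells, with UMIs in 39 LYTAC and 48 control cells (log2 ratio -0.53, 95% interval -0.86 to -0.21). Per cell, Prf1 had a median of 1 UMI (0 to 17) in LYTAC and 2 UMIs (0 to 25) in control members, so the ranges overlap. In members with a Gzma UMI alone, Prf1 stood at 411 CPM in LYTAC and 670 CPM in control. Its log2 ratio lay between -0.71 and -0.35 over the alternatives run. Granzyme A had a median of 9 UMIs (0 to 160) in LYTAC and 15.5 UMIs (0 to 258) in control members, and its summed ratio was small (log2 ratio -0.20, 95% interval -0.32 to -0.09). Without the control member with 258 Gzma UMIs, and with the LYTAC member with 160 kept, its ratio was 0.01. A ratio without both was not taken, so this value does not show that the difference rests on 1 cell. Per 10000 UMIs of a cell, the median Gzma level was 21.9 in LYTAC and 35.1 in control members. The mean over cells was 4232 CPM in LYTAC and 4176 CPM in control members, so the measures did not share a direction.

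Granzyme B (Gzmb) stood at 432 CPM in LYTAC and 448 CPM in control NK cells (log2 ratio -0.05, 95% interval -0.38 to 0.27), below the CD8 T cells of each library at 614 and 484 CPM. Serglycin (Srgn), the proteoglycan that packs granules, stood at 2584 CPM in LYTAC and 2185 CPM in control NK cells (log2 ratio 0.24, 95% interval 0.10 to 0.38), and Plac8 at 783 CPM in LYTAC and 822 CPM in control NK cells (log2 ratio -0.07, 95% interval -0.31 to 0.17). Stx11 and Rab27a, which dock and release granules, had 47 and 17 UMIs in LYTAC and 31 and 12 UMIs in control members. Most measured granule genes thus had a ratio at or below 0, where the median over all genes was also below 0, at -0.05. The share of all genes below 0 was not taken, so this count is a description. The 3 of 20 past 1.5-fold lower were Gzmc, Gzmd and Gzme, and over all genes 14.8% were past it, so nothing is read from that count.

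The UMIs of these 3 granzymes came mainly from a few control cells. Granzyme C (Gzmc) had 24 UMIs in 8 LYTAC cells and 243 UMIs in 9 control cells (log2 ratio -3.11, 95% interval -3.78 to -2.50). In the control library 5 members held 113, 41, 39, 33 and 13 of them, or 98.4% of the total. The same 5 control members held no UMI of Gzma, Klra4 or Klra8, but held 18 UMIs of Ctla4 in 5 cells, 24 of Cd226 in 4 cells, 12 of Cxcr6 in 4 cells, 31 of Gzme in 2 cells and 21 of Gzmd in 1 cell. They were deep cells, at 22730, 9883, 8036, 6434 and 10683 UMIs in the order of the Gzmc counts. They held 28 UMIs of Trbc1 and no UMI of Trac, and the rule had taken them by Ncr1 (11 UMIs), Klre1 (6 UMIs) and Klrb1c (2 UMIs).

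In LYTAC members the highest Gzmc counts were 10, 5 and 4 UMIs. The cell with 10 held no Gzma, Klra4 or Klra8, like the 5 control cells, whereas the cells with 5 and 4 held 5 and 160 UMIs of Gzma. Gzmc stood at 347 CPM in LYTAC members without Gzma and 43.4 CPM in those with it. Without members that lack Gzma, Gzmc had 13 UMIs in LYTAC and 4 UMIs in control members, and the log2 ratio was 1.71 (0.02 to 3.78), in the opposite direction. These are few UMIs, and the LYTAC cells with 5 and 4 held most of the 13, a clustering that the interval does not cover. No direction is read from it.

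**Figure D3:**
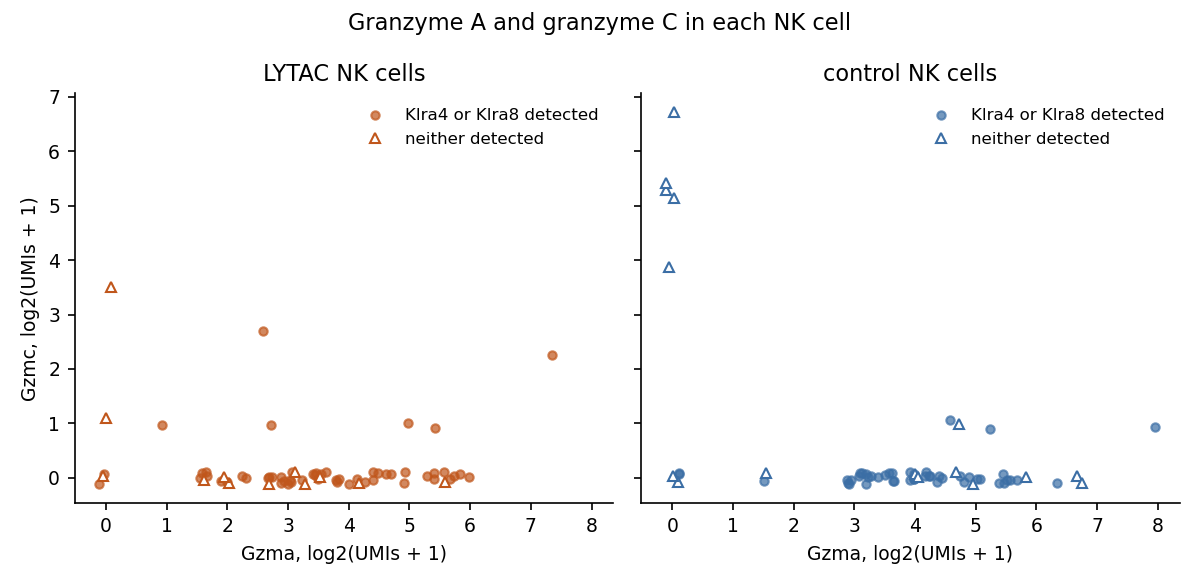
Granzyme A (x axis) against granzyme C (y axis) in each NK cell of the LYTAC library (left) and the control library (right), as log2 of UMIs + 1, with a little scatter added to separate points. Open triangles mark cells with no UMI of Klra4 or Klra8. The 5 control cells with the highest Gzmc counts, 13 to 113 UMIs, lie at 0 on the Gzma axis.

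Members without Gzma were 5 in the LYTAC library and 9 in the control library, with medians of 6600 and 8036 UMIs. Members with Gzma held medians of 4371 and 4679 UMIs. Levels summed over all members thus hold both kinds of cell, with more and deeper cells without Gzma in the control library. This split was made after the values were seen, and the cells without Gzma are given no name of their own. They held 45 of the 86 LYTAC UMIs and 107 of the 117 control UMIs of Rora, a nuclear receptor of several innate lymphoid cell types. Of the interleukin-7 receptor Il7r they held 5 of 6 LYTAC and 10 of 10 control UMIs, and of Cxcr6 4 of 4 and 12 of 14. Eomes was found in 1 of the 5 LYTAC and 4 of the 9 control cells, against 43 of 61 LYTAC and 41 of 55 control cells with Gzma. Rora, Il7r and Cxcr6 were thus concentrated in the members without Gzma in both libraries. Il7r and Cxcr6 were also held by CD8 T cells, at 163 and 520.5 CPM in LYTAC and 205 and 592 CPM in control. RNA of the T cell receptor beta genes was higher too in members without Gzma than in those with it. Trbc1 stood at 883 against 274 CPM in LYTAC and 449.6 against 342 CPM in control members. For Trbc2 the levels were 378 against 90.2 CPM and 127 against 89.6 CPM. Trac had 1 UMI in LYTAC and 0 UMIs in control members without Gzma. What these cells are was not tested. The integrin Itga1 had 2 of 16 LYTAC and 10 of 28 control UMIs in members without Gzma, from 1 LYTAC and 2 control cells. It stood at 63.1 CPM in LYTAC and 115 CPM in control members without Gzma, against 46.8 and 59.7 CPM in those with it. The list of genes often used to mark type 1 innate lymphoid cells had 5 of 14 measured, all with a ratio below 0 (median -0.30).

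Among cytokines and chemokines, 10 of 17 genes were measured, with 3 at least 1.5-fold higher and 2 lower (median -0.20). Xcl1, which attracts cross-presenting dendritic cells, stood at 487 CPM in LYTAC and 309 CPM in control NK cells (log2 ratio 0.65, 95% interval 0.30 to 1.01), with UMIs in 34 LYTAC and 28 control cells. The most Xcl1 UMIs in 1 member were 43 in the LYTAC and 36 in the control library. Without that LYTAC member, and with the control member kept, the ratio was 0.24. Leaving out a member of the higher library only makes the difference smaller, and a ratio without both was not taken. In CD8 T cells Xcl1 stood at 52.3 and 40.9 CPM. Ccl3, a chemokine for myeloid and T cells, stood at 259.9 CPM in LYTAC and 419.9 CPM in control NK cells, with UMIs in 22 LYTAC and 31 control cells (log2 ratio -0.69, 95% interval -1.09 to -0.31), and Ccl4 stood at 623 CPM in LYTAC and 690.5 CPM in control NK cells (log2 ratio -0.15, 95% interval -0.42 to 0.12). Ccl5 had a median of 16 UMIs (0 to 102) in LYTAC and 27.5 UMIs (0 to 147) in control cells, or 5140.4 and 6149.7 CPM (log2 ratio -0.26, 95% interval -0.35 to -0.17). Interferon gamma (Ifng), the main cytokine of activated NK cells, stood at 202 CPM in LYTAC and 299 CPM in control NK cells, with UMIs in 29 LYTAC and 38 control cells (log2 ratio -0.56, 95% interval -1.02 to -0.12). Tgfb1 stood at 1133 CPM in LYTAC and 1054 CPM in control NK cells (log2 ratio 0.10, 95% interval -0.10 to 0.31), above CD8 T cells at 496 and 499 CPM. Of these, Xcl1 was higher and Ccl3 lower by more than 1.5-fold in LYTAC members, and the others lay within that fold.

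Cytokine receptors and their signalling proteins had 21 of 30 genes measured, with 1 at least 1.5-fold higher and 1 lower (median -0.18). Il2rb, the chain through which NK cells read interleukin-15, stood at 1489.8 CPM in LYTAC and 1688 CPM in control NK cells (log2 ratio -0.18, 95% interval -0.35 to -0.01) and was found in 64 LYTAC and 63 control cells. Il18rap, a chain of the interleukin-18 receptor, stood at 341 CPM in LYTAC and 499.8 CPM in control NK cells (log2 ratio -0.55, 95% interval -0.90 to -0.21). Tgfbr2, the receptor chain that binds TGF-beta, stood at 127 CPM in LYTAC and 214 CPM in control NK cells (log2 ratio -0.75, 95% interval -1.32 to -0.20). Stat3 stood at 2167 CPM in LYTAC and 2618 CPM in control NK cells and Ifngr1 at 1006 CPM in LYTAC and 1098 CPM in control NK cells, both within 1.5-fold. Il2rb and Il18rap thus lay slightly lower in LYTAC members, and within 1.5-fold. Il2rb lay at the median of its list, -0.18, and its interval nearly reached no difference, so no direction is read for it.

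The transcription factor list had 25 of 28 genes measured, 12 above and 13 below 0 (median -0.04), with 1 at least 1.5-fold higher and 3 lower. Eomes differed by less than its counting error (log2 ratio 0.01, 95% interval -0.34 to 0.35), and Tbx21, its partner in NK maturation, stood at 139 CPM in LYTAC and 162 CPM in control NK cells (log2 ratio -0.22, 95% interval -0.80 to 0.35). Bach2, a repressor that holds lymphocytes back from effector states, stood at 2810.4 CPM in LYTAC and 2654 CPM in control NK cells, and Irf8, needed for NK responses to virus, at 2260.4 CPM in LYTAC and 2466 CPM in control NK cells. Both were found in 65 of 66 LYTAC and 62 of 64 control cells. In CD8 T cells Bach2 stood at 329 CPM in the LYTAC and 407 CPM in the control library, and Irf8 at 515 and 409 CPM. Id2, which NK development requires, stood at 1445 CPM in LYTAC and 1188 CPM in control NK cells (log2 ratio 0.28, 95% interval 0.09 to 0.47).

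Of the RUNX factors, whose core letters are marked in the start regions above, Runx3 stood at 1030.5 CPM in LYTAC and 732 CPM in control NK cells (log2 ratio 0.49, 95% interval 0.26 to 0.73) and Runx1 at 1375 CPM in LYTAC and 976 CPM in control NK cells (log2 ratio 0.49, 95% interval 0.29 to 0.69). Tox, a factor of NK and T cell development, stood at 121 CPM in LYTAC and 185 CPM in control NK cells, with UMIs in 18 LYTAC and 22 control cells (log2 ratio -0.62, 95% interval -1.21 to -0.04). Zeb2, a factor of late maturation, stood at 308 CPM in LYTAC and 456 CPM in control NK cells (log2 ratio -0.57, 95% interval -0.93 to -0.21). Runx1 and Runx3 thus lay higher and Zeb2 lower in LYTAC members, each by less than 1.5-fold.

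Markers of early maturation had 11 of 12 genes measured, with 4 at least 1.5-fold higher and 4 lower (median -0.12). Cd69, an early activation and tissue retention protein, stood at 366 CPM in LYTAC and 211 CPM in control NK cells, with UMIs in 40 LYTAC and 37 control cells (log2 ratio 0.79, 95% interval 0.38 to 1.21), against 170.0 and 161 CPM in CD8 T cells. Ctla2a, a cysteine protease inhibitor, stood at 997 CPM in LYTAC and 598 CPM in control NK cells, with UMIs in 57 LYTAC and 43 control cells (log2 ratio 0.74, 95% interval 0.49 to 0.99). Kit, a receptor of early lymphoid cells, stood at 127 CPM in LYTAC and 219 CPM in control NK cells, with UMIs in 15 LYTAC and 17 control cells (log2 ratio -0.79, 95% interval -1.36 to -0.24). Emb, a relative of basigin that also escorts lactate transporters, stood at 683 CPM in LYTAC and 884 CPM in control NK cells (log2 ratio -0.37, 95% interval -0.62 to -0.13). Markers of late maturation had 10 of 13 genes measured, with none past 1.5-fold higher and 1 past 1.5-fold lower (median -0.20). That gene was Ly6c2, with 6 UMIs in LYTAC and 38 UMIs in control members, and Ahnak and Lgals1 stood at 635 and 631 CPM and at 532 and 554 CPM in LYTAC and control members. Early genes thus lay on both sides, with Cd69, Ctla2a and Xcl1 higher and Kit lower. Over the alternatives run, the log2 ratio lay between -1.12 and -0.37 for Kit and between 0.24 and 1.08 for Xcl1, so their size depends on the setting. The 0.24 of Xcl1 is the ratio without the LYTAC member with most of its UMIs, a setting that only makes the difference smaller.

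Genes of trafficking and adhesion had 17 of 24 measured, with 2 at least 1.5-fold higher and 4 lower (median -0.45). Itga4, the integrin chain that binds VCAM-1, stood at 1046 CPM in LYTAC and 1505 CPM in control NK cells, with UMIs in 61 LYTAC and 59 control cells (log2 ratio -0.53, 95% interval -0.72 to -0.33). Itgb1 stood at 580.2 CPM in LYTAC and 647 CPM in control NK cells (log2 ratio -0.16, 95% interval -0.44 to 0.12) and Cd44 at 523 CPM in LYTAC and 461 CPM in control NK cells (log2 ratio 0.18, 95% interval -0.13 to 0.49). Itgax and Itgb7 were among the genes past 1.5-fold lower, and the 2 past 1.5-fold higher were Cd69 and Ccr7.

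**Figure D4:**
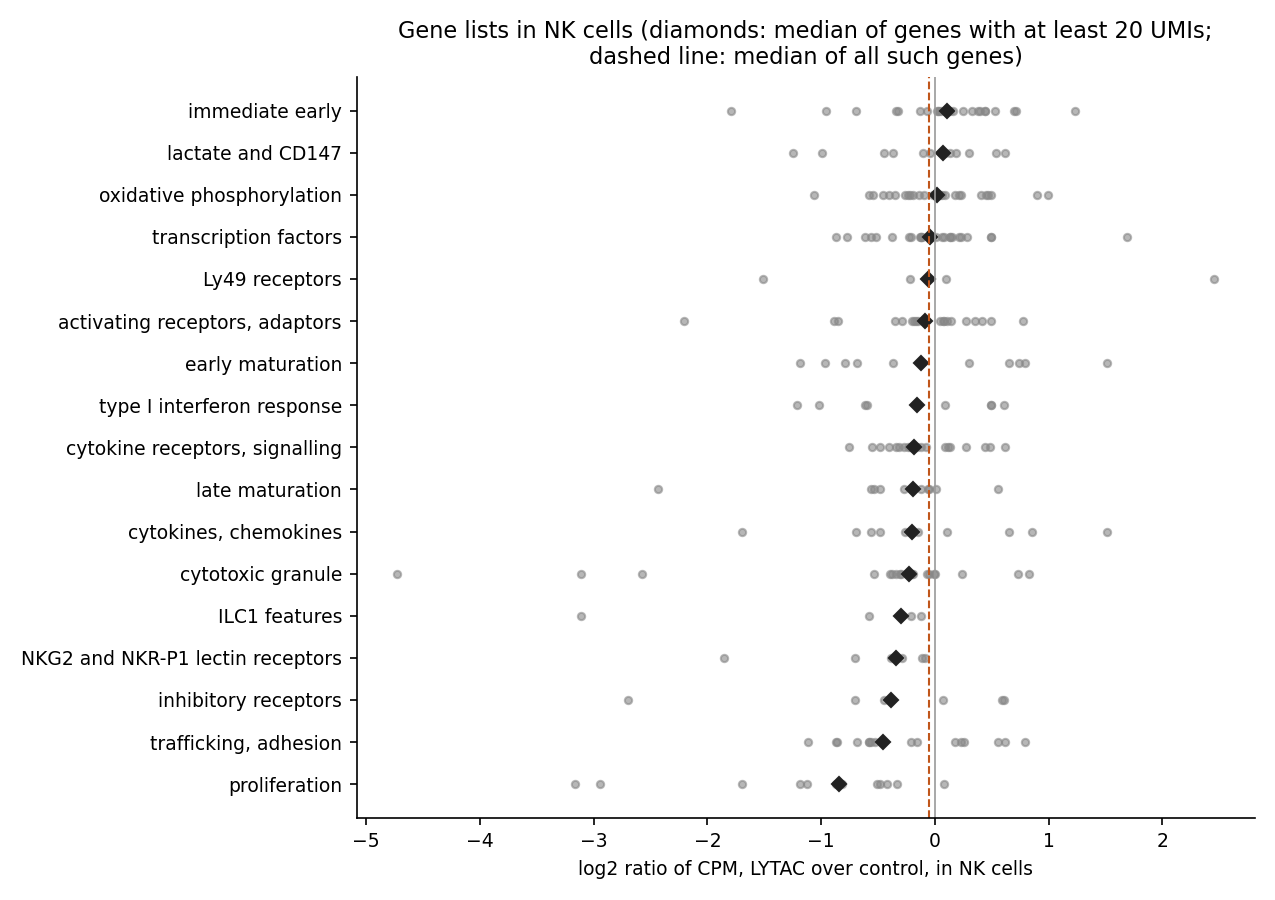
Log2 ratio of CPM, LYTAC over control, in NK cells for the genes of 17 lists with at least 20 UMIs over both libraries (grey points) and the median of each list (diamonds), with lists ordered by median. The dashed line is the median of all such genes, -0.05. The medians run from -0.84 for proliferation to 0.11 for immediate early genes.

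The genes nearest the target of the treatment were sparse in NK cells. Bsg, which encodes CD147, had 29 UMIs in 22 LYTAC cells and 30 UMIs in 21 control cells, or 87.6 and 77.3 CPM (log2 ratio 0.18, 95% interval -0.61 to 0.97). In CD8 T cells it stood at 139.5 CPM in the LYTAC and 122 CPM in the control library. LYTACs act on the protein, which was not measured here. The lactate transporters Slc16a1 (MCT1) and Slc16a3 (MCT4) had 6 and 4 UMIs in LYTAC and 14 and 8 UMIs in control members. Ldha, the lactate dehydrogenase chain, stood at 212 CPM in LYTAC and 193 CPM in control NK cells (log2 ratio 0.13, 95% interval -0.36 to 0.62) and Pkm, pyruvate kinase, at 178 CPM in LYTAC and 170.0 CPM in control NK cells (log2 ratio 0.07, 95% interval -0.46 to 0.60). The list had 13 of 18 genes measured, with 1 at least 1.5-fold higher and 2 lower (median 0.07), so NK cells showed no common direction in it.

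Proliferation genes had 12 of 28 measured, 11 of them below 0 (median -0.84), with none past 1.5-fold higher and 7 past 1.5-fold lower. Mki67 had 5 UMIs in 2 LYTAC cells and 19 UMIs in 4 control cells, and Top2a had 16 UMIs in 9 LYTAC and 41 UMIs in 14 control cells. Mcm6, a subunit of the replicative helicase, had 33 UMIs in 26 LYTAC and 68 UMIs in 35 control cells (log2 ratio -0.81, 95% interval -1.46 to -0.19). Hmgb2, Tubb5 and Pcna stood at 396, 193 and 133 CPM in LYTAC and at 531, 183 and 167 CPM in control NK cells, all within 1.5-fold. The 3 control members with most UMIs of this list held 42.4% of the control sum, and the 3 such LYTAC members held 25.2%, so a few cells carried much of it. At least 1% of UMIs from this list was reached by 0 of 66 LYTAC and 2 of 64 control NK cells, against 6.42% and 4.76% of CD8 T cells, and 0 LYTAC and 3 control NK cells lay near that limit.

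Immediate early genes had 25 of 28 measured, 18 above and 7 below 0 (median 0.11), with 3 at least 1.5-fold higher and 3 lower. These genes also respond to tissue dissociation. Ier2 stood at 272 CPM in LYTAC and 167 CPM in control NK cells (log2 ratio 0.70, 95% interval 0.22 to 1.18) and Zfp36, which destabilises cytokine mRNA, at 257 CPM in LYTAC and 157 CPM in control NK cells (log2 ratio 0.71, 95% interval 0.22 to 1.21). Junb, Tnfaip3 and Nfkbia stood at 1275, 1076 and 946 CPM in LYTAC and at 1020.2, 1064 and 696 CPM in control NK cells. The heat shock genes Hspa1a and Hspa1b were each found in 4 cells of either library, with 25 and 17 UMIs in LYTAC and 57 and 69 UMIs in control members.

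Type I interferon response genes were sparse, with 9 of 33 measured and 6 without a UMI (median -0.16), 1 at least 1.5-fold higher and 4 lower. Ifi203 and Ifi209 stood at 45.3 and 39.3 CPM in LYTAC and 69.6 and 59.3 CPM in control NK cells. Oxidative phosphorylation genes had 28 of 30 measured, with 2 at least 1.5-fold higher and 1 lower (median 0.02). Cox4i1, Uqcrh and Atp5a1 stood at 816, 550.0 and 369 CPM in LYTAC and at 706, 556 and 353 CPM in control NK cells. The median over all genes of this depth was -0.05.

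Over all genes with at least 100 UMIs in NK cells of both libraries together, the median log2 ratio was -0.02. Of these 1421 genes, 37 (2.6%) were at least 1.5-fold higher and 84 (5.91%) at least 1.5-fold lower in LYTAC members, or 121 (8.52%) either way. With TMM scaling 58 were higher and 56 lower, so the larger number of lower genes depends on the scaling. After Gzmc, the 9 genes with the smallest ratios had 24 to 80 UMIs in LYTAC and 72 to 206 UMIs in control members. Dleu2, a long non-coding RNA, had 24 UMIs in 14 LYTAC cells and 101 UMIs in 26 control cells (log2 ratio -1.84, 95% interval -2.55 to -1.19). Prim2, the large primase subunit, had 40 UMIs in LYTAC and 132 UMIs in control members (log2 ratio -1.49, 95% interval -2.04 to -0.97), found in 21 cells of each library, but 43 of the control UMIs lay in 1 cell, without which the ratio was -0.99, and with at least 5 NK receptor UMIs required it was 0.0058. Nrip1, a corepressor of nuclear receptors, stood at 242 CPM in LYTAC and 531 CPM in control NK cells, with UMIs in 35 LYTAC and 43 control cells (log2 ratio -1.13, 95% interval -1.53 to -0.76). Pleckstrin (Plek), a substrate of protein kinase C, stood at 215 CPM in LYTAC and 464 CPM in control NK cells, with UMIs in 36 LYTAC and 48 control cells (log2 ratio -1.11, 95% interval -1.53 to -0.71).

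The remaining genes of that end were Klra9, described above, Dnajc1, a chaperone of the endoplasmic reticulum, Prr14l, Fhl2, a LIM-domain protein, and Mtmr12, a myotubularin without phosphatase activity. Their CPM in LYTAC and control NK cells were 169 and 417 for Dnajc1, 93.7 and 211 for Prr14l, 87.6 and 185 for Fhl2, and 118 and 242 for Mtmr12. In CD8 T cells none of Dleu2, Prim2, Nrip1, Plek, Dnajc1, Prr14l, Fhl2 and Mtmr12 differed by 1.5-fold between the libraries. Nrip1, for example, stood at 305 CPM in LYTAC and 392 CPM in control CD8 T cells, and Plek at 221 and 232 CPM.

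At the other end, Dynll1, a light chain of dynein, had 99 UMIs in 39 LYTAC cells and 53 UMIs in 30 control cells, or 299 and 137 CPM (log2 ratio 1.13, 95% interval 0.64 to 1.64). Maml3, a coactivator of Notch signalling, had 69 UMIs in 23 LYTAC cells and 38 UMIs in 13 control cells (log2 ratio 1.09, 95% interval 0.50 to 1.70), and stood at 12.9 and 6.03 CPM in LYTAC and control CD8 T cells. Ferritin light chain (Ftl1), which stores iron, stood at 1209 CPM in LYTAC and 636 CPM in control NK cells, with UMIs in 56 LYTAC and 55 control cells (log2 ratio 0.93, 95% interval 0.69 to 1.16). Its CD8 T cell levels were 704 CPM in LYTAC and 476 CPM in control, so the same direction was seen there. Gated monocytes or macrophages, the gate with the highest Ftl1 level, held 8413 CPM in the LYTAC library, and the part of free RNA in this difference was not tested.

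The cell cycle inhibitor Cdkn1a stood at 239 CPM in LYTAC and 129 CPM in control NK cells, with UMIs in 32 cells of each library (log2 ratio 0.89, 95% interval 0.36 to 1.43), and its ratio was 0.21 with at least 5 NK receptor UMIs required. The chaperone Hsp90aa1 stood at 888 CPM in LYTAC and 520.4 CPM in control NK cells (log2 ratio 0.77, 95% interval 0.51 to 1.04), while its CD8 T cell levels were 731 CPM in LYTAC and 765 CPM in control. Tiparp, a mono-ADP-ribosyltransferase, stood at 363 CPM in LYTAC and 206 CPM in control NK cells (log2 ratio 0.82, 95% interval 0.40 to 1.24). Mapkapk3, a kinase downstream of p38, stood at 257 CPM in LYTAC and 149 CPM in control NK cells (log2 ratio 0.78, 95% interval 0.28 to 1.29). Cwc15, a spliceosome component, stood at 196 CPM in LYTAC and 108 CPM in control NK cells (log2 ratio 0.86, 95% interval 0.28 to 1.46), and 1700025G04Rik at 562 CPM in LYTAC and 332 CPM in control NK cells (log2 ratio 0.76, 95% interval 0.43 to 1.09). Together with Cd69, these genes made up the 10 with the greatest ratios among genes that met the rule for naming, which leaves out genes under 5% of their level in another gated cell type.

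**Figure D5:**
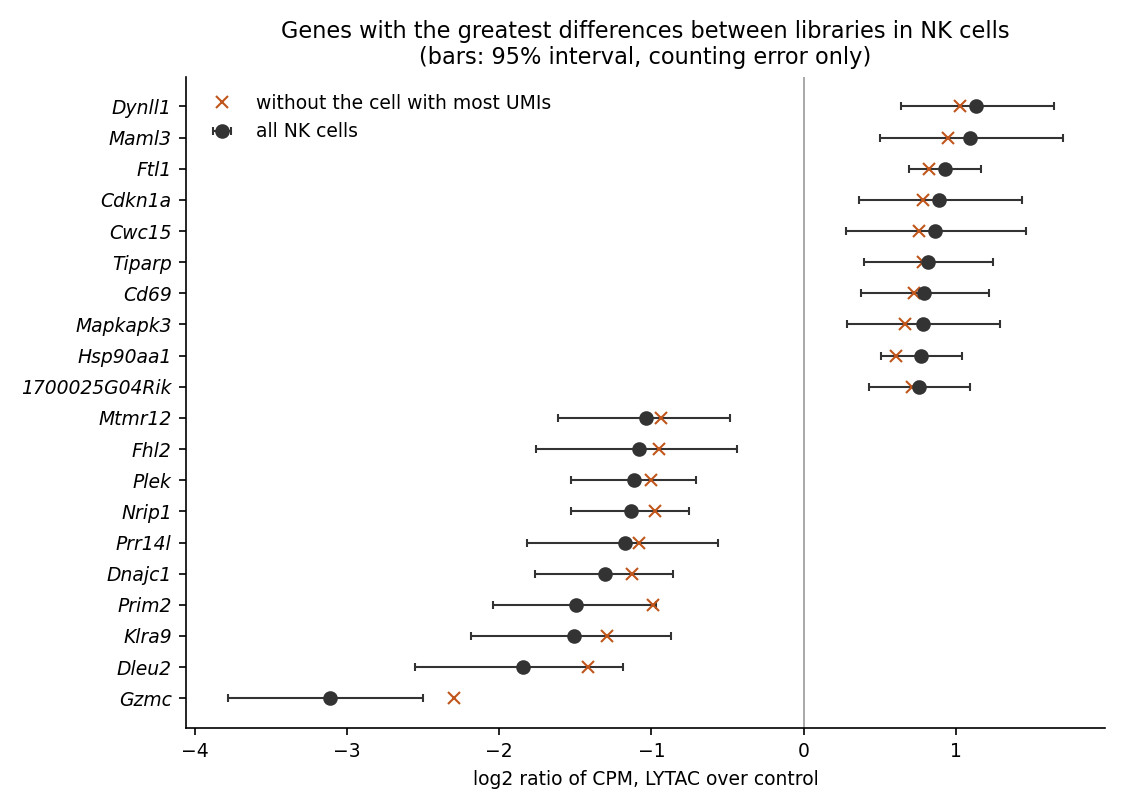
Log2 ratio of CPM, LYTAC over control, in NK cells for the genes at either end of the ratios, 10 each way, among genes with at least 100 UMIs that met the rule for naming, with 95% intervals for counting error (black) and the ratio without the cell that holds most UMIs of the gene in the library where it is higher (orange crosses). Gzmc is at -3.11, and at -2.29 without its highest control cell. The genes were chosen for their size of difference.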

How the data were processed

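Droplet single-cell libraries from Hepa1-6 tumours (1 LYTAC, 1 control) were analysed. Per the submitters' processing notes the authors used Cell Ranger 3.0.2 on mm10, whereas the deposited matrices, per the file headers, name cellranger 7.1.0. Which annotation they used is not given in the sources here. The deposited values are raw UMI counts per gene and barcode, without normalization. Of 32285 gene identifiers, 32235 (99.8%) occur in GENCODE M21, which gave gene positions on mm10.

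NK members, the gene lists and the rule for named genes were chosen with earlier results of these data known. Counts were summed over members per library and given as CPM of the sum. A list gene counted as measured with at least 20 UMIs over both libraries, and a gene entered the comparison over all genes with at least 100. Named genes were the rule's genes, in each list the 3 with the highest CPM and those at least 1.5-fold different with at least 100 UMIs and an interval excluding no difference, and over all genes 10 at each end of the ratios whose interval excluded no difference, with a higher level of 50 CPM or more that was not under 5% of the highest other gate's. Genes of mitochondria, ribosomes, haemoglobin and antigen receptors stayed out of the last rule. Every other gene named was chosen after its values were seen. Some genes that this rule names are not reported here. With 1 library per group no test, p-value or standard error was made. Intervals are exact 95% (Poisson for a level, Clopper-Pearson for a share, conditional binomial for a ratio), and a count of 0 was taken to allow 3. PCR and capture errors, and differences between mice, are not covered. Ratios and intervals were tried on simulated sums drawn as independent Poisson counts. These hold no clustering of UMIs in single cells, so they do not show that the intervals are wide enough for such genes.

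Doublets were scored with Scrublet in scanpy 1.11.5 and kept; removing the highest scores at 0.8% per 1000 barcodes took out 1 member of each library. edgeR 4.0.16 in R 4.3.3 gave the TMM scaling of an alternative only. Python 3.11.15 and scipy 1.17.1 were used.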

Additional observations from a re-analysis of the deposited data

How the results depend on the processing

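No paired analysis was possible because each group is 1 library and no test was made. Between groups, 37 genes were at least 1.5-fold higher and 84 lower in LYTAC members. With at least 2 NK receptor UMIs required (86 LYTAC and 81 control cells) 57 were higher, and with TMM scaling 58 were higher and 56 lower. With a minimum of 50 UMIs 133 were higher and 243 lower, and with 200 UMIs 15 were higher and 22 lower, since fewer or more genes enter. With totals that leave out mitochondrial, ribosomal and 6 other genes, 50 were higher and 64 lower. The shift of the median over all genes stayed between -0.04 and 0.05 on the log2 scale.

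The median of the type 1 innate lymphoid cell list was -0.30 with all members and 0.85 without members lacking Gzma. There Gzmc was 1.71, from 13 LYTAC and 4 control UMIs, in place of -3.11. The medians of the list are over different genes: 5 reached 20 UMIs with all members, and only Rora (2.05) and Itga1 (-0.35), on opposite sides, without those members. That setting, and leaving out the member with most UMIs of a gene in the library where it is higher, were chosen after seeing the data. Prim2 was at 0.0058 with at least 5 receptor UMIs (34 LYTAC and 46 control cells), and the cause was not tested. Klra9 stayed between -1.69 and -1.29, Ftl1 between 0.81 and 0.99, Cd69 between 0.67 and 0.99 and Hcst between -1.11 and -0.72 over the alternatives run, Xcl1 between 0.24 and 1.08 and Cdkn1a between 0.21 and 1.11. The -1.29 of Klra9 and the 0.24 of Xcl1 are ratios without the member with most UMIs of the gene, a setting that only makes the difference smaller. NK cells per 100 T cells and the share of keratin-low barcodes stayed within their intervals. The ratio of shares was 1.07 without neutrophils in the total, and with at least 5 receptor UMIs required it was 0.636 and the ratio of NK cells per T cell 1.02, against 0.887 and 1.43. Depth limits all of this: a gene with 20 UMIs over 130 cells can show only large differences, and 1 library per group shows no spread between mice.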
